A study of Mus musculus with 6 samples.

Results

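The complement system was examined in mouse liver through 34 genes, out of 49212 in the count tables: complement components, lectin pathway genes, regulators and receptors. They were chosen by symbol, but these and the other gene lists were set with earlier results of these data known. Shares called in any list are therefore descriptions. All 34 symbols were found. The livers came from C57BL/6J mice aged 15 weeks, with 3 libraries labelled as DHT pellet treated PCOS mice and 3 labelled placebo. DHT is dihydrotestosterone, an androgen that cells do not convert to oestrogen, and PCOS is polycystic ovary syndrome, which such an implant is used to model. Bulk RNA of whole liver tissue was sequenced, and the labels give no sex, dose, length of treatment, collection time, litter or pooling of animals. Whether the libraries of a group are separate animals is not stated either: the p-values speak for the spread among these samples alone, which may be technical.

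Complement is a cascade of plasma proteins that marks and lyses microbes and helps to clear debris. Antibody-bound C1q starts the classical pathway, sugar-binding lectins start the lectin pathway, and the alternative pathway amplifies both, until all 3 converge on C3 and then on the terminal components that form the membrane attack complex. Hepatocytes make most of these proteins, while C1q comes mainly from macrophages, which in liver are the Kupffer cells. Serum of female laboratory mice is known for lower terminal pathway activity than that of males.

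Total counts ran from 41336844 to 59257416 in DHT libraries and from 52814320 to 60209462 in placebo libraries. The libraries differ in more than the treatment label: 4 Y-linked genes (Ddx3y, Eif2s3y, Uty and Kdm5d) summed to 137 to 153 CPM (counts scaled to the library total and a TMM factor, as all CPM here) in DHT libraries and 0.123 to 0.197 CPM in placebo libraries. Xist, which marks a silenced X chromosome, had 0.107 to 0.514 CPM in DHT libraries and 25.2 to 255 CPM in placebo libraries. Y-linked transcripts were thus present in every DHT library and close to 0 in every placebo library. By these genes and Xist the DHT libraries read as male and the placebo libraries as female, though the labels give no sex. Treatment and sex therefore cannot be told apart in any result given here. The 8 hepatocyte markers (Alb among them) were present in every library, with sums of 80166 to 96682 CPM in DHT libraries and 104530.2 to 156534 CPM in placebo libraries, so that the liver label held. These sums did not overlap, but scaled to the library total alone they did, at 86695 to 102733 CPM in DHT libraries and 96270.3 to 151146 CPM in placebo libraries, and their part in the results was not tested. In bulk tissue, fewer cells of a type and less RNA per cell cannot be told apart.

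C6 and Cfd were higher in DHT liver than in placebo liver, and none of the other 32 of these genes passed the test. C6, which joins C5b in the first step of the membrane attack complex, rose 8.78-fold, and Cfd, the protease that activates the alternative pathway, was close to absent in placebo liver and reached 24.7 CPM on average in DHT liver. Among those that did not pass, C3, C2, Cfb, Mbl2 and C8b, with others, had lower mean values in DHT liver. C4a and C8a, with others, had higher ones. A gene passes, or is called, here at a Benjamini-Hochberg adjusted p under 0.05 in edgeR's quasi-likelihood test over 15126 genes, and fold changes are DHT over placebo. The words rose and fell describe this contrast alone, in which treatment and sex are not separated.

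Of the 34 genes, 2 were called, both higher (5.88%), against 1.65% of all 15126 genes tested in either direction and 0.952% higher. None was called lower in that test, against 0.701% of all genes, while 11 of the 34 had an unadjusted p under 0.05. Over all 15126 genes 2409 had one, which is the background for every such count in the lists below. DESeq2 called 8 of the 34, 3 higher and 5 lower, against 7.02% of all genes (3.29% higher and 3.73% lower). Limma voom called 4 of the 34, 2 in each direction, against 4.67% of all genes (2.43% higher and 2.24% lower). All 34 passed the filter on low counts, but Cfd did so only through the DHT libraries, so its call and the count of 2 are a description and not support for a change of the list. The median log2 fold change was -0.223 over the 34 genes and -0.0245 over all genes tested. Of the 34, 25 lay below 0 and 9 above it, and of all 15126 genes 7844 lay below 0. With library size alone the medians were -0.0343 over the 34 and 0.165 over all genes. DHT and placebo libraries did not overlap in 11 of the 34 (32.4%), 4 with DHT above and 7 with DHT below, against 23.6% of all genes (12.7% above and 10.9% below). Scaled to the library total alone, 9 of the 34 (26.5%) did not overlap, against 27.4% of all genes. DHT lay above in 4 of the 34 (11.8%, against 21.1% of all genes) and below in 5 (14.7%, against 6.27%). Colec11 and Masp2 were the genes lost with that scaling. With the libraries' replicate number added as a block, edgeR called 9 of the 34 (26.5%), 3 higher and 6 lower, against 10.7% of all genes (5.44% higher and 5.28% lower). Neither the labels nor the data establish a pairing by that number, so calls with the block are an alternative reading throughout. Without placebo 3 edgeR called 5 of the 34 (C4a and C6 higher, C2, C3 and Mbl2 lower), against 5.54% of all genes. Without placebo 1 or placebo 2 it called 1, C6, against 0.607% and 0.671%.

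**Figure D1:**
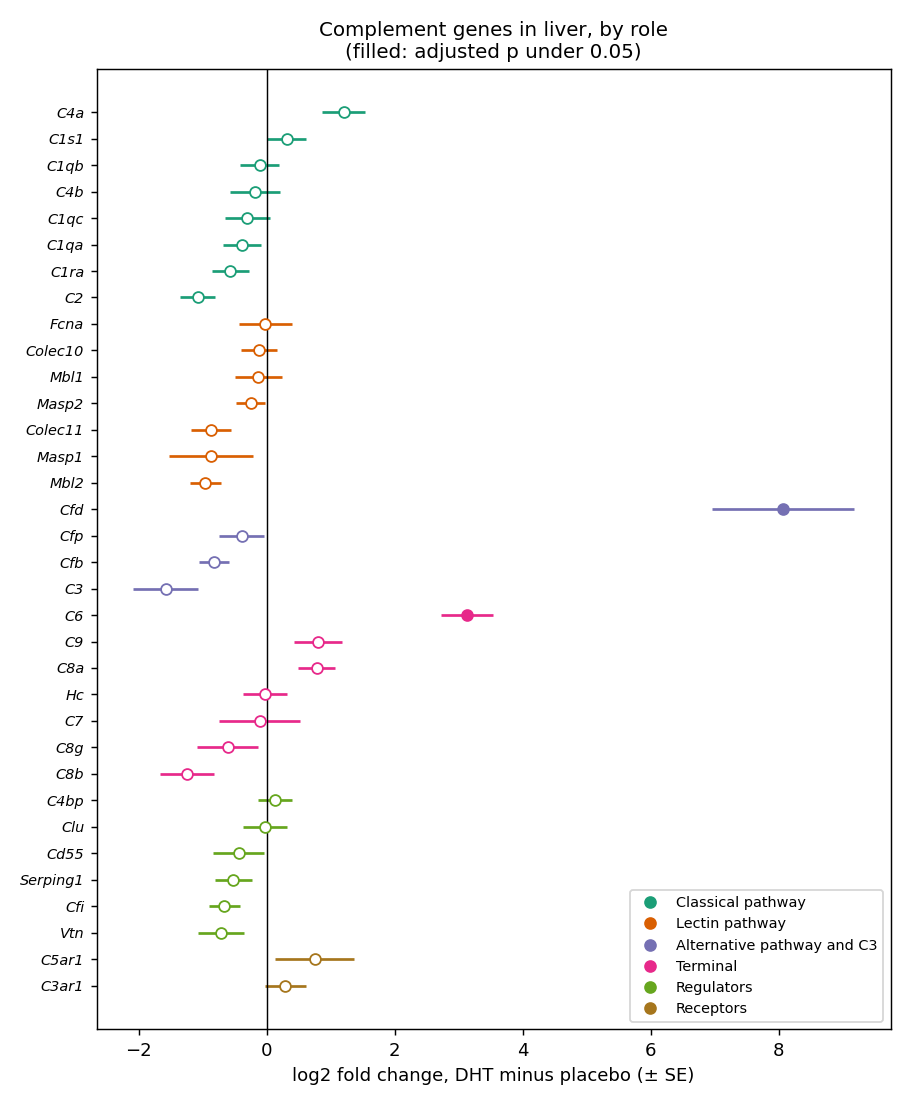
Log2 fold change of the 34 complement genes, DHT minus placebo, with its standard error (n = 3 libraries each), grouped and coloured by role. Filled points passed at an adjusted p under 0.05: only C6 (3.13) and Cfd (8.07) are filled, and C3 (-1.58) lies lowest.

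Among the terminal components C6 rose, and the values of the other 6 lay on both sides of 0 without passing. C6 (chromosome 15, 4727175 to 4815456, GRCm38) had 92.7, 103 and 131 CPM in DHT libraries 1, 2 and 3, against 20.2, 8.0 and 9.03 CPM in placebo libraries 1, 2 and 3. Every DHT library stood far above the placebo libraries, and placebo 1 was the highest of its group. C6 rose by 3.13 ± 0.41 on the log2 scale (± SE, 95% interval 2.18 to 4.09), with an adjusted p of 0.0119 by edgeR. The call held in each of 15 alternatives, and without 1 library in turn the adjusted p lay between 0.00511 and 0.0482. On the TPM scale, which also corrects for transcript length, C6 had 60.9 ± 8.74 TPM in DHT and 5.95 ± 3.32 TPM in placebo (SD, n = 3 each), place 21 of the 34 genes in DHT and place 28 in placebo.

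C8a and C8b, which encode the alpha and beta chains of C8, lie tail to tail on chromosome 4 with 11.1 kb and no counted gene between them, and their values went opposite ways. C8a (chromosome 4, 104815679 to 104876398, minus strand) had 257, 267 and 349 CPM in DHT libraries 1, 2 and 3, against 219, 159 and 129 CPM in placebo libraries 1, 2 and 3, and every DHT library lay above the placebo range. C8b (chromosome 4, 104766317 to 104804548, plus strand) had 78.8, 49.0 and 159 CPM in DHT libraries 1, 2 and 3, against 217, 198 and 262 CPM in placebo libraries 1, 2 and 3, and every DHT library lay below the placebo range. Neither passed: the log2 fold change was 0.78 ± 0.29 for C8a (adjusted p = 0.249 by edgeR) and -1.24 ± 0.42 for C8b (adjusted p = 0.219). With the replicate block, C8b was called (adjusted p = 0.000619 by edgeR) and C8a was not (adjusted p = 0.0759). The ratio of C8a to C8b counts within a library, a measure chosen after the values were seen, was 3.26, 5.45 and 2.20 in DHT libraries 1, 2 and 3, against 1.01, 0.801 and 0.493 in placebo libraries 1, 2 and 3. The alpha chain's reads thus outnumbered the beta chain's in each DHT library, while in placebo they were about level or fewer. This ratio does not correct for exon length, which is 3636 bases for C8a and 2545 for C8b. Per length, C8a lay above C8b in each DHT library and below it in each placebo library. Placebo libraries 1, 2 and 3 had 117, 91.7 and 62.0 TPM of C8a, against 166, 163 and 180 TPM of C8b.

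C9, the pore-forming last component, had 456, 239 and 588 CPM in DHT libraries 1, 2 and 3, against 299, 189 and 247 CPM in placebo libraries 1, 2 and 3. DHT 2 lay inside the placebo range, and the log2 fold change of 0.80 ± 0.37 did not pass (adjusted p = 0.338 by edgeR). Hc, which encodes C5 and is intact in C57BL/6J, had 457 ± 63.1 CPM in DHT and 467 ± 196 CPM in placebo (SD, n = 3 each) and a log2 fold change of -0.03 ± 0.34 whose sign turned with the setting. C8g, the gamma chain of C8, had 411, 312 and 591 CPM in DHT libraries 1, 2 and 3, against 409.6, 404 and 1186 CPM in placebo libraries 1, 2 and 3. Placebo 3 alone stood apart there, and the log2 fold change was -0.61 ± 0.48 with all libraries and 0.10 without it, not called in either fit. C7, which is made mostly outside hepatocytes, was low in all libraries, with 60, 15 and 17 counts in DHT libraries 1, 2 and 3, against 52, 31 and 12 counts in placebo libraries 1, 2 and 3. Of the 7 terminal genes, 1 was called higher and 0 lower, against 0.952% and 0.701% of all genes, and 3 had groups that did not overlap (42.9%), against 23.6% of all genes.

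**Figure D2:**
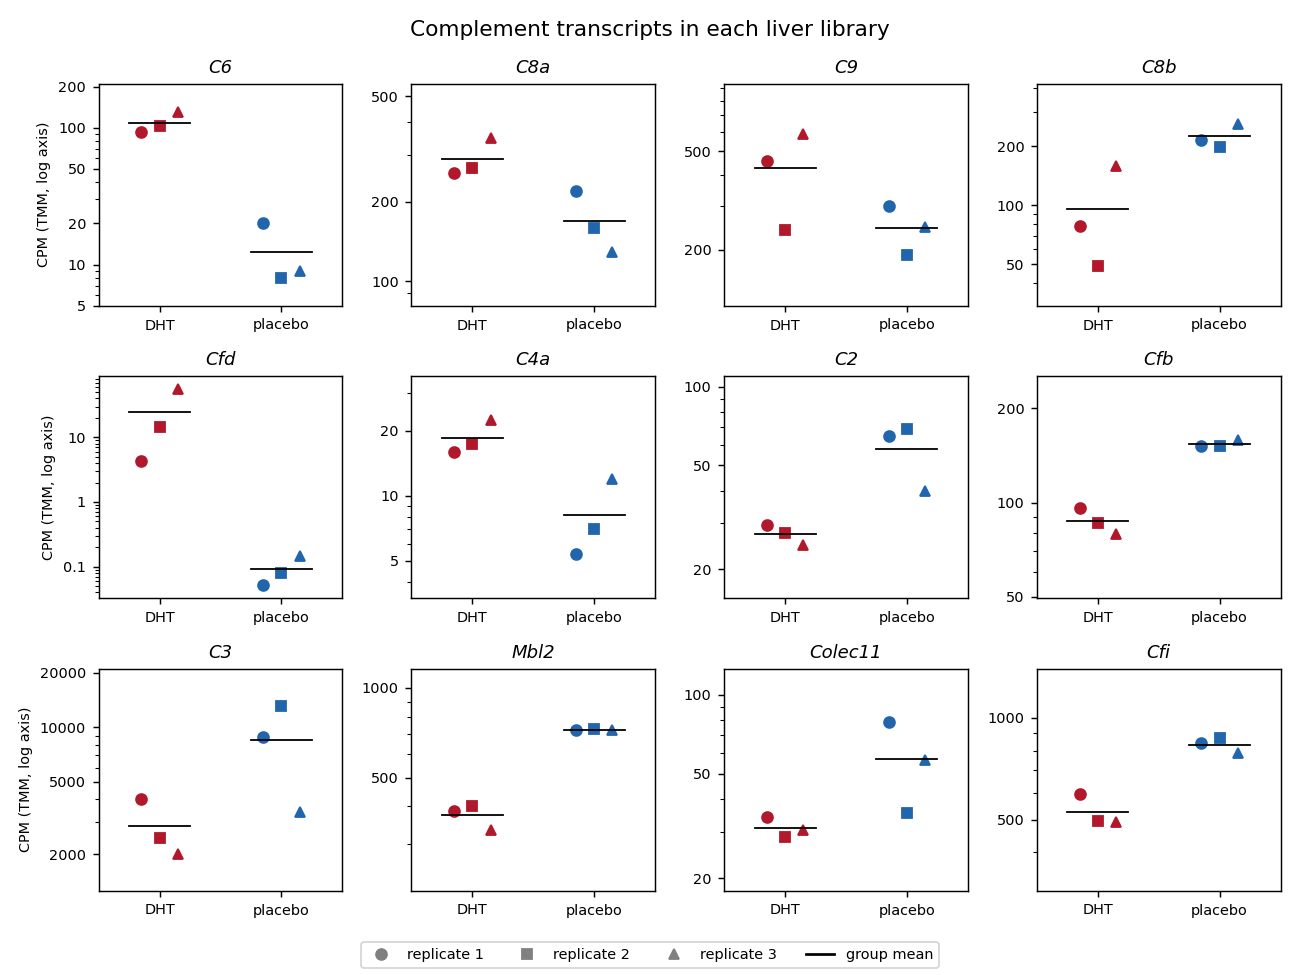
CPM (TMM-scaled, log axis, a scale of its own in each panel) of 12 complement genes in the 3 DHT libraries (left) and the 3 placebo libraries (right), with the replicate number as the marker and the group mean as a line. C6 and Cfd stand apart by far, C8a and C8b separate in opposite directions, and C3 overlaps because placebo 3 (3401 CPM) lies below DHT 1 (4046 CPM).

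The windows around the transcription starts of these genes are shown because C6 and Cfd are the called genes and C8a and C8b the neighbours whose values diverged. They are RefSeq promoter windows of GRCm38.p6, from 250 bases before a start to 50 after it, each read 5' to 3' on the strand of its gene: chr15:4726960-4727259 (plus) for C6, chr10:79890603-79890902 (plus) for Cfd, chr4:104876349-104876648 (minus) for C8a and chr4:104766067-104766366 (plus) for C8b. Capitals mark matches to 4 motifs searched on both strands, with overlaps allowed. These are TTCNNNGAA of STAT factors and AGAACA as a half-site of steroid receptors such as the androgen and glucocorticoid receptors. The others are AGGTCA as a half-site of other nuclear receptors and the E-box CACGTG of the clock.
C6: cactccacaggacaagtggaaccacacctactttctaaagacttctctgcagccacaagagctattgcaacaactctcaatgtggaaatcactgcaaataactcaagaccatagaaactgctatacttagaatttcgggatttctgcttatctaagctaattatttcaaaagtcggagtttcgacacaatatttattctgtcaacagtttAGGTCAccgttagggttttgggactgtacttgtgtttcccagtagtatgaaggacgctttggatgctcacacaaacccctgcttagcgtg
Cfd: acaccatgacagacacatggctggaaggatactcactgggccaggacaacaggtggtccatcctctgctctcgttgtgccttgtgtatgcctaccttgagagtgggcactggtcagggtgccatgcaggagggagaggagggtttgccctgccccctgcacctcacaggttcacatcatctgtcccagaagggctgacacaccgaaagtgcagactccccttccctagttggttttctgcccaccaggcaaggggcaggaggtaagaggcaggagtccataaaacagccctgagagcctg
C8a: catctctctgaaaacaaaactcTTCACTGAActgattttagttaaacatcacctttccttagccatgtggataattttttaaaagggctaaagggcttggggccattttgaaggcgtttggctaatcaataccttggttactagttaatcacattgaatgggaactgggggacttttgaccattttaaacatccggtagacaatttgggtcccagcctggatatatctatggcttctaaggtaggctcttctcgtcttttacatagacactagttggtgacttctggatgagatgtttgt
C8b: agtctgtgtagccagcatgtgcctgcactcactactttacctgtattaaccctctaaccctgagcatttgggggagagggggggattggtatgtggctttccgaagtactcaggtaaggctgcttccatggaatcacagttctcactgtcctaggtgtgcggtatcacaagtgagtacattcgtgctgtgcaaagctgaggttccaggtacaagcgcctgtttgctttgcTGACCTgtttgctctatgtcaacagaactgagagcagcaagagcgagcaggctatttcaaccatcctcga
C6 and C8b each held 1 AGGTCA match, and C8a held 1 TTCNNNGAA match. No match of the 4 motifs was found in the Cfd window, and none of AGAACA or CACGTG in any of these windows. Among 32851 RefSeq windows of the same length, 16.3% held AGGTCA, 8.3% TTCNNNGAA, 19% AGAACA and 7.15% CACGTG. A match describes letters only. RefSeq windows were found for 24 of the 34 genes, and the start used for C6 lies 35 bases from the gene start in the count tables.

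In the alternative pathway and at C3, where all pathways meet, Cfd rose while C3 and Cfb had lower values. Cfd encodes factor D, or adipsin, which cuts factor B and in mice is best known as a product of fat cells (chromosome 10, 79890853 to 79892656). It had 270, 803 and 2475 counts in DHT libraries 1, 2 and 3, against 3, 4 and 7 counts in placebo libraries 1, 2 and 3, or 4.38, 14.4 and 55.4 CPM in DHT libraries 1, 2 and 3, against 0.0516, 0.0788 and 0.144 CPM in placebo libraries 1, 2 and 3. Each DHT library lay far above the highest placebo library, and DHT 3 held the most and DHT 1 the least. Cfd rose by 8.07 ± 1.11 on the log2 scale (adjusted p = 0.0134 by edgeR), an estimate that rests on 3 to 7 counts per placebo library. The call was lost without placebo 1, 2 or 3 (adjusted p = 0.109, 0.0774 and 0.0991 by edgeR) and with limma voom (0.103), and it held without any one DHT library.

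Markers of fat cells were read beside Cfd. Of 8 such genes, Lep was at 0 in all 6 libraries, and Adipoq, Plin1 and Retn had at most 2 counts in any library. Adig, which did not pass the low-count filter, had 7, 15 and 0 counts in DHT libraries 1, 2 and 3. In placebo libraries 1, 2 and 3 Adig had 1, 0 and 0 counts. Log2 fold changes were 0.05 ± 0.38 for Lipe and -1.31 ± 0.58 for Pck1, neither called by edgeR. The only called gene of the list was Cidea, which steatotic hepatocytes also express, with 24.8, 28.5 and 1.32 CPM in DHT libraries 1, 2 and 3, against 0.155, 0.0197 and 0.0617 CPM in placebo libraries 1, 2 and 3. Cidea was lowest in DHT 3, the DHT library with the most Cfd, and like Cfd it passed the low-count filter through the DHT libraries only. Its call (adjusted p = 0.0259 by edgeR) held in 8 of 15 alternatives. It was lost without placebo 1, 2 or 3 (adjusted p = 0.137, 0.107 and 0.146 by edgeR), without DHT 1 or 2 (0.0589 and 0.0751), with limma voom (0.143) and without a low-count filter (0.148). The replicate block called 2 genes of the list, 1 in each direction. The sum over the list, most of it Pck1 of hepatocytes, was 492 to 1847 CPM in DHT libraries and 1176 to 3169.8 CPM in placebo libraries.

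C3 was the second most abundant complement transcript per length in DHT and the first in placebo, with 1258 ± 504 TPM in DHT and 3296 ± 2106 TPM in placebo (SD, n = 3 each). C3 (chromosome 17, 57203970 to 57228136) had 4046, 2468 and 2009.5 CPM in DHT libraries 1, 2 and 3, against 8889, 13135 and 3401 CPM in placebo libraries 1, 2 and 3. DHT 2 and 3 lay below all placebo libraries, whereas DHT 1 lay above placebo 3, the lowest placebo library. The log2 fold change was -1.58 ± 0.51 (95% interval -2.75 to -0.40, adjusted p = 0.197 by edgeR), and it was called with the replicate block (adjusted p = 0.0108), with DESeq2 (0.0248) and without placebo 3 (0.0146). C3 alone took 0.421, 0.267 and 0.217% of all counts in DHT libraries 1, 2 and 3, against 0.858, 1.21 and 0.313% in placebo libraries 1, 2 and 3.

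Cfb, factor B, which carries the protease of the alternative C3 convertase (chromosome 17, 34856374 to 34862518), had 96.3, 85.9 and 79.1 CPM in DHT libraries 1, 2 and 3, against 151, 152 and 158 CPM in placebo libraries 1, 2 and 3. The placebo libraries were nearly level and every DHT library lay below them. Its log2 fold change of -0.82 ± 0.23 did not pass (adjusted p = 0.138 by edgeR) but did with the replicate block (0.0423) and with DESeq2 (0.00675). Exons of Cfb overlap those of Gm20547, a gene on the same strand that also covers C2, over 79.5% of their length. Gm20547 had 0 counts in all 6 libraries, so reads of the shared stretch were not assigned to it, and levels per length of Cfb and C2 may be too low. Cfp, the X-linked gene of properdin, which stabilises that convertase, had 21.6 ± 8.23 CPM in DHT and 28.3 ± 8.27 CPM in placebo (SD, n = 3 each) and a log2 fold change of -0.39 ± 0.35 that did not pass (adjusted p = 0.611 by edgeR).

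In the classical pathway no gene of 8 was called by edgeR, 2 had an unadjusted p under 0.05, and DESeq2, limma voom and the replicate block each called 2, C4a higher and C2 lower. C2, the protease of the classical and lectin C3 convertase (chromosome 17, 34862604 to 34898265), had 29.7, 27.5 and 24.7 CPM in DHT libraries 1, 2 and 3, against 64.5, 68.7 and 39.8 CPM in placebo libraries 1, 2 and 3. All DHT libraries lay below the placebo range. The log2 fold change was -1.08 ± 0.27 (95% interval -1.71 to -0.45, adjusted p = 0.113 by edgeR, and 0.00583 with the replicate block). Exons of C2 overlap those of Gm20547 and Zbtb12 over 46.9% of their length, and C2 lies 85 bases from Cfb.

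C4a, known in mice as the sex-limited protein Slp, a C4 copy whose expression depends on androgen in some strains, had 16, 17.3 and 22.4 CPM in DHT libraries 1, 2 and 3, against 5.35, 6.99 and 12 CPM in placebo libraries 1, 2 and 3. Every DHT library lay above the placebo range, and the third library was the highest of each group. Its log2 fold change was 1.20 ± 0.34 (95% interval 0.41 to 1.99, adjusted p = 0.152 by edgeR), called with the replicate block (0.00105), DESeq2 (0.0408), limma voom (0.0177) and without placebo 3 (0.00832). C4b, the C4 of the classical pathway, had 809 ± 193 CPM in DHT and 924 ± 430.4 CPM in placebo (SD, n = 3 each) and a log2 fold change of -0.19 ± 0.39 (adjusted p = 0.843). C4a and C4b are near-identical copies 65.2 kb apart on chromosome 17 (34809092 to 34823464 and 34728380 to 34743882), so how reads were shared between them is uncertain. C4a held 1.57, 2.11 and 3.51% in DHT libraries 1, 2 and 3, against 0.637, 0.500 and 2.15% in placebo libraries 1, 2 and 3 (its share of the reads given to both genes), so these shares overlapped between the groups at DHT 1, DHT 2 and placebo 3.

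The 3 chains of C1q, the molecule that recognises bound antibody, had their highest values in the same library and did not pass. C1qa had 31.0, 32.1 and 44.6 CPM in DHT libraries 1, 2 and 3, against 63.0, 35.0 and 42.7 CPM in placebo libraries 1, 2 and 3. C1qb had 31.3, 35.8 and 42.0 CPM in the DHT libraries, against 54.9, 31.2 and 31.3 CPM in the placebo libraries. C1qc had 29.4, 31.1 and 38.0 CPM in the DHT libraries, against 62.6, 32.7 and 26.1 CPM in the placebo libraries. That library was placebo 1, and the other placebo libraries overlapped with DHT or lay below it. Log2 fold changes were -0.39 ± 0.30 for C1qa, -0.11 ± 0.30 for C1qb and -0.30 ± 0.35 for C1qc, with 95% intervals of -1.07 to 0.29, -0.79 to 0.57 and -1.11 to 0.50, so that a 2-fold difference is inside the interval of C1qa and C1qc and not of C1qb. The signs of C1qb and C1qc turned without placebo 1.

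Kupffer cell and macrophage markers were read beside C1q: of 12, none was called by edgeR, DESeq2 or limma voom, 1 had an unadjusted p under 0.05 and the replicate block called 1, and none was at 0. Their sums were 269, 261 and 426 CPM in DHT libraries 1, 2 and 3 and 325, 230.2 and 322 CPM in placebo libraries 1, 2 and 3. The ratio of the summed 3 C1q chains to these markers was 0.341, 0.379 and 0.292 in DHT libraries 1, 2 and 3. In placebo libraries 1, 2 and 3 this ratio was 0.555, 0.430 and 0.311, and the groups overlapped through placebo 3 alone. Lyz2, a marker in the sum, had 118.5 CPM in placebo 3 and 104.6 CPM in DHT 3. In DHT 1, DHT 2, placebo 1 and placebo 2 Lyz2 had 39.0, 39.3, 32.1 and 26.0 CPM. The ratio without Lyz2 was not tested, so the overlap may hang on this gene. C1ra, a protease of the C1 complex, had 142 ± 3.88 CPM in DHT and 212 ± 68.8 CPM in placebo (SD, n = 3 each) and a log2 fold change of -0.57 ± 0.29 (adjusted p = 0.376 by edgeR). C1s1, the protease it activates, had 347 ± 64.9 CPM in DHT and 279.7 ± 81.9 CPM in placebo (SD, n = 3 each) and a difference of 0.31 ± 0.30 on that scale (adjusted p = 0.642). C1s1 shares 18.4% of its exon length with Gm16567 on the other strand.

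**Figure D3:**
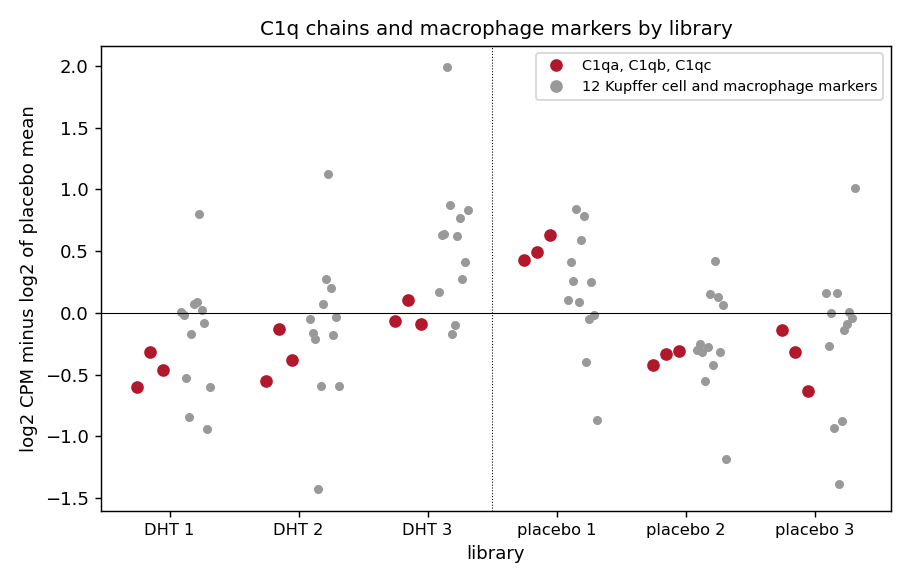
Log2 CPM of the 3 C1q chains (red) and of 12 Kupffer cell and macrophage markers (grey) in each library, relative to the mean of the placebo libraries, with DHT libraries on the left. The C1q chains are highest in placebo 1 (0.43, 0.49 and 0.63), where 8 of the 12 markers are also above 0.

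In the lectin pathway all 7 genes had log2 fold changes below 0, none was called by edgeR, 2 had an unadjusted p under 0.05, and DESeq2 and limma voom called 1 each, Mbl2, lower. Mbl2, mannose-binding lectin C and the most abundant of the 7 per length (chromosome 19, 30232928 to 30239685), had 385, 401 and 333 CPM in DHT libraries 1, 2 and 3, against 724, 726 and 720.0 CPM in placebo libraries 1, 2 and 3. The placebo libraries were nearly level and every DHT library lay well below them. Mean levels were 768 ± 100.5 TPM in DHT and 1269 ± 122 TPM in placebo (SD, n = 3 each), and the log2 fold change was -0.96 ± 0.24 (95% interval -1.51 to -0.40, adjusted p = 0.108 by edgeR). Mbl2 was called with the replicate block (adjusted p = 0.037), DESeq2 (0.000659), limma voom (0.0418) and without placebo 3 (0.0441). Mbl1, mannose-binding lectin A, had 158, 149 and 217 CPM in DHT libraries 1, 2 and 3, against 134, 139 and 301 CPM in placebo libraries 1, 2 and 3, with placebo 3 and DHT 3 the highest of their groups. Its log2 fold change was -0.13 ± 0.37 and turned to 0.36 without placebo 3.

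Colec11, a collectin that binds sugars as the mannose-binding lectins do, had 34.3, 28.6 and 30.6 CPM in DHT libraries 1, 2 and 3, against 78.6, 35.4 and 56.3 CPM in placebo libraries 1, 2 and 3. All DHT libraries lay below the placebo range, though placebo 2 was close to them, and the log2 fold change of -0.87 ± 0.31 did not pass (adjusted p = 0.24 by edgeR) except with the replicate block (0.0471). Colec10, its partner collectin, had 24.8 ± 6.02 CPM in DHT and 26.9 ± 5.18 CPM in placebo (SD, n = 3 each) with a log2 fold change of -0.12 ± 0.28. Stellate cells, which in mouse liver also express collectins, had 10 markers in the list with sums of 335 to 476 CPM in DHT libraries and 507 to 947 CPM in placebo libraries. None of the 10 was called by edgeR, DESeq2 or limma voom, 1 by the replicate block, and 2 had an unadjusted p under 0.05. The stellate sums did not overlap, but scaled to the library total alone they did (362 to 495 CPM in DHT libraries and 468 to 915 CPM in placebo libraries), as did the groups of Colec11, and the part of these cells in the Colec11 values was not tested. Fcna, ficolin A of macrophages, had 31.1 ± 12.7 CPM in DHT and 31.6 ± 15.5 CPM in placebo (SD, n = 3 each) and a log2 fold change of -0.02 ± 0.41.

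Masp1, a protease that the lectins carry, varied widely in placebo, with 35.0, 25.5 and 25.8 CPM in DHT libraries 1, 2 and 3, against 41.1, 105 and 11.9 CPM in placebo libraries 1, 2 and 3. The DHT libraries lay between placebo 1 and placebo 3. Masp2, the protease that cuts C4 and C2, had 107, 103 and 113 CPM in DHT libraries 1, 2 and 3, against 115, 150.2 and 121 CPM in placebo libraries 1, 2 and 3, just below placebo in every DHT library with TMM scaling but not per library total, and a log2 fold change of -0.25 ± 0.23 (adjusted p = 0.62 by edgeR). Exons of Masp2 overlap those of Tardbp on the other strand over 54.9% of their length, and the log2 value of Tardbp itself, 0.92 ± 0.23, was not called (adjusted p = 0.1 by edgeR).

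Among the 6 regulators, none was called by edgeR, limma voom or with the replicate block, 1 (Cfi) had an unadjusted p under 0.05, and DESeq2 called that gene lower. Cfi, factor I, the protease that inactivates C3b and C4b (chromosome 3, 129835884 to 129875332), had 594, 495 and 493 CPM in DHT libraries 1, 2 and 3, against 842, 872 and 784 CPM in placebo libraries 1, 2 and 3. Every DHT library lay below the placebo range, with a log2 fold change of -0.66 ± 0.24 (adjusted p = 0.246 by edgeR, 0.048 by DESeq2). Vtn, vitronectin, which keeps the terminal complex out of membranes, was the most abundant of the 34 transcripts per length in DHT, with 1939.8 ± 372 TPM in DHT and 2746 ± 1175 TPM in placebo (SD, n = 3 each). Its log2 fold change of -0.71 ± 0.36 did not pass (adjusted p = 0.369 by edgeR), and placebo 3 (1623 CPM) lay inside the DHT range of 1555 to 2077 CPM. Serping1, the C1 inhibitor, had 522 ± 97.0 CPM in DHT and 749 ± 156 CPM in placebo (SD, n = 3 each), a log2 fold change of -0.52 ± 0.29. C4bp, the cofactor of factor I for C4b, had 602 ± 69.1 CPM in DHT and 549 ± 121 CPM in placebo (SD, n = 3 each), with a log2 fold change of 0.13 ± 0.27 (95% interval -0.49 to 0.76). Clu, clusterin, had 1108 ± 254 CPM in DHT and 1132 ± 384 CPM in placebo (SD, n = 3 each). Cd55, the membrane decay-accelerating factor, had 8.93 ± 3.05 CPM in DHT and 12.1 ± 5.11 CPM in placebo (SD, n = 3 each). The log2 fold changes of Clu and Cd55 were -0.03 ± 0.34 and -0.44 ± 0.40.

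The anaphylatoxin receptors, which macrophages and neutrophils carry, were at low levels. C3ar1 had 162, 132 and 122 counts in DHT libraries 1, 2 and 3, against 161, 92 and 83 counts in placebo libraries 1, 2 and 3. C5ar1 had 73, 60 and 20 counts in DHT libraries 1, 2 and 3, against 48, 31 and 8 counts in placebo libraries 1, 2 and 3, so that counts of this gene give little precision. Log2 fold changes were 0.29 ± 0.32 for C3ar1 and 0.75 ± 0.62 for C5ar1, and neither was called by edgeR, DESeq2, limma voom or with the replicate block (0 of 2 with an unadjusted p under 0.05). Neutrophil markers, which share that source, summed to 2.81 to 4.38 CPM in DHT libraries and 1.26 to 3.78 CPM in placebo libraries over 10 genes, of which 4 passed the low-count filter and 0 were called by edgeR (0 at an unadjusted p under 0.05), DESeq2 or limma voom.

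Per length of transcript, the 34 genes ran from under 1 TPM to over 1000 TPM in both groups. In DHT, 2 genes had a mean of at least 1000 TPM and 15 of at least 100 TPM, and in placebo 3 and 16 did. Vtn and C3 led in both groups, followed by Mbl2 (768 TPM in DHT and 1269 TPM in placebo). The values of Vtn and C3 overlapped within each group, as did those of C8g, Cfi, Clu and Serping1. Cfd was the lowest of the 34 in placebo and number 22 in DHT, with 58.9 ± 62.6 TPM in DHT and 0.187 ± 0.0819 TPM in placebo (SD, n = 3 each). Regulators took 40.4 to 44.7% of the summed TPM of the 34 genes in DHT libraries and 34.5 to 44.1% in placebo libraries. The share of C3 and the alternative pathway was 18.2, 15.0 and 12.4% in DHT libraries 1, 2 and 3, against 26.6, 34.8 and 14.9% in placebo libraries 1, 2 and 3, with placebo 3 within the DHT range.

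**Figure D4:**
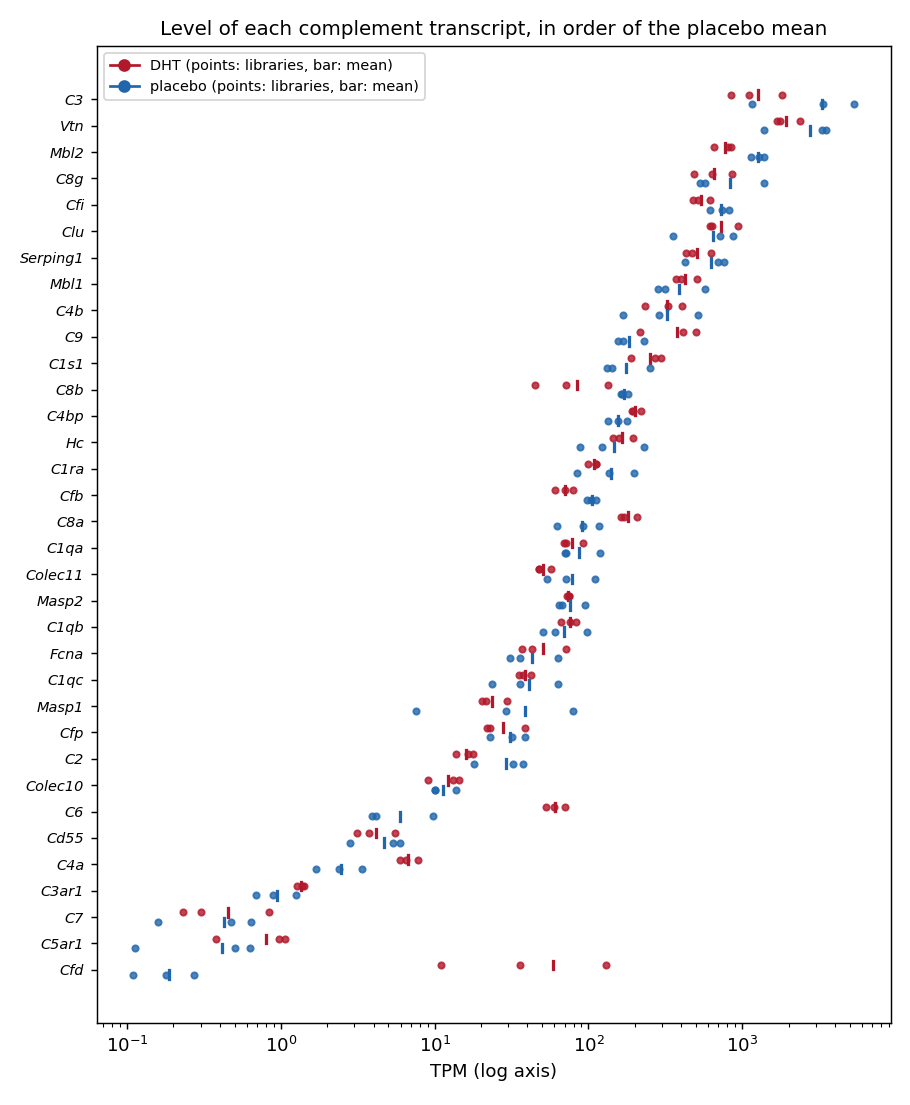
TPM (log axis) of each of the 34 complement transcripts, in order of the placebo mean, with DHT above placebo in each row, points for libraries and bars for means. C6 and Cfd leave the order: Cfd is lowest in placebo (mean 0.187 TPM) and near the middle in DHT (mean 58.9 TPM).

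Across libraries the 34 genes did not split into the groups alone: placebo 3 was the lowest placebo library in 16 of the 34 genes and the highest in 9. C3, Vtn, Masp1, C4b and Clu were lowest in placebo 3, while Mbl1, Fcna, C8g, C4a and C8b were highest there. In the DHT group, DHT 2 was the lowest in 16 genes and DHT 3 the highest in 17. The same counts over all genes are not given here, so these need not be particular to the 34 genes.

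**Figure D5:**
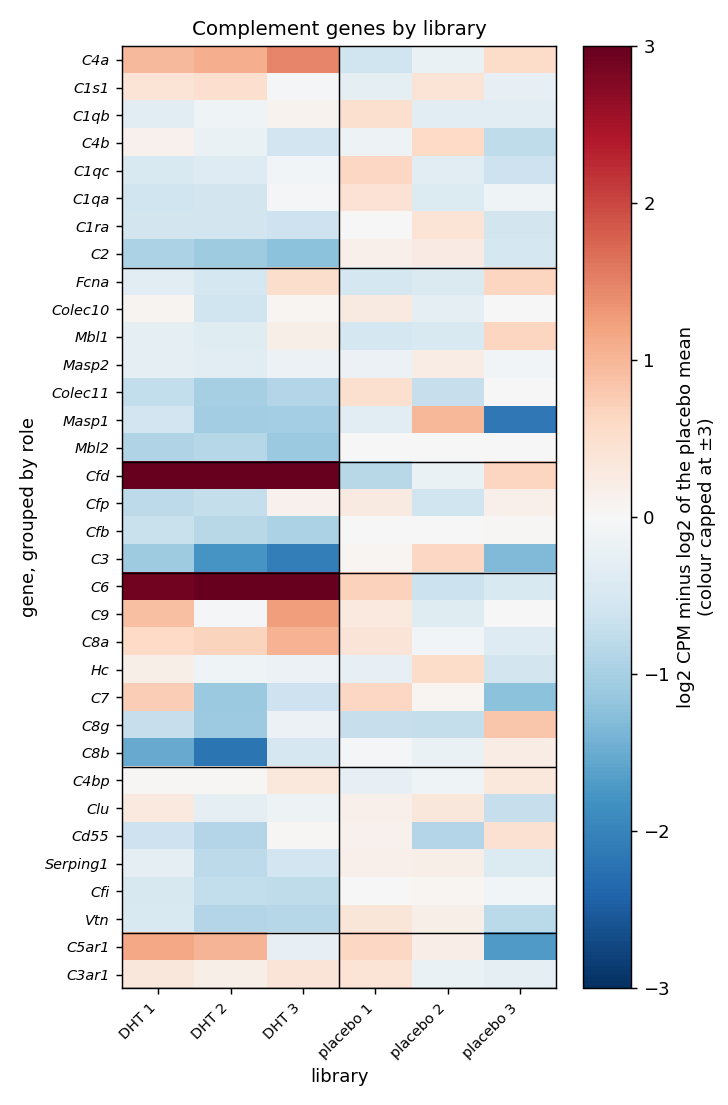
Log2 CPM of each complement gene in each library relative to the mean of the placebo libraries (DHT libraries left, placebo libraries right, genes grouped by role, colour capped at ±3). C6 and Cfd are high in all DHT libraries, and placebo 3 departs from placebo 1 and 2 in C3 (low) and in Mbl1, Fcna and C8g (high).

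Other genes of the complement system that are not among the 34 were read from the same test: of 24 found in the tables, 22 were tested, 1 rose (4.55%) and 0 fell, against 0.952% and 0.701% of all genes. The one that rose was Susd4, a membrane protein with complement control domains reported to inhibit complement (chromosome 1, 182763860 to 182896591), with 7.74, 16.6 and 23.0 CPM in DHT libraries 1, 2 and 3, against 1.62, 1.6 and 2.10 CPM in placebo libraries 1, 2 and 3. Every DHT library lay above the placebo range. Susd4 rose by 3.15 ± 0.43 on the log2 scale (adjusted p = 0.0126 by edgeR), a call lost without placebo 1 (adjusted p = 0.093), placebo 2 (0.0693) or DHT 2 (0.0532). DESeq2, limma voom and the replicate block each called Susd4 alone of these genes.

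Of 22 acute phase genes, liver genes that inflammation raises as it does C3 and Cfb, none was called by edgeR or limma voom, 6 had an unadjusted p under 0.05, and DESeq2 and the replicate block each called 1, lower. Their median log2 fold change was -0.338, against -0.0245 over all genes. Of 21 regulators of hepatic complement expression, 0 rose and 2 fell (9.52%), Esr1 and Cebpd, against 0.701% of all genes called lower. An unadjusted p under 0.05 was found for 5 of them. DESeq2 and the replicate block each called 2 lower, and limma voom called 3 lower. EdgeR called 4 lower without placebo 3, 1 with library size alone and 0 without placebo 1 or placebo 2. Esr1, the oestrogen receptor alpha (chromosome 10, 4611593 to 5005614), had 21.5, 11.7 and 12.7 CPM in DHT libraries 1, 2 and 3, against 86.2, 109 and 61.5 CPM in placebo libraries 1, 2 and 3 and a log2 fold change of -2.48 ± 0.35 (adjusted p = 0.0141 by edgeR). Cebpd, a transcription factor of the acute phase response, fell by 1.34 ± 0.26 (adjusted p = 0.0475 by edgeR), with 3.29, 3.22 and 4.0 CPM in DHT libraries 1, 2 and 3, against 8.72, 7.66 and 10.3 CPM in placebo libraries 1, 2 and 3. Leaving out 1 library kept the call of Esr1 when that was placebo 3 or DHT 1 and lost it otherwise (highest adjusted p = 0.0891 by edgeR), and kept that of Cebpd when it was placebo 3 (highest adjusted p = 0.257). Scaling by library size alone also lost Cebpd (adjusted p = 0.0757). Exons of Cebpd overlap Spidr over 14.9% of their length on the other strand.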

How the data were processed

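Each liver library came as a table of counts per gene, as the authors deposited it, with 49212 genes and their exon coordinates on GRCm38; they are whole numbers with no normalisation, per the file headers. Trimmomatic 0.36, STAR 2.5.2b, featureCounts and Subread 1.5.2 are named in the submitters' processing notes. The sources used here do not give the strand setting, the treatment of multi-mapped reads or whether reads or pairs were counted, so genes with overlapping exons or near-identical copies are uncertain.

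DHT was set against placebo with edgeR 4.0.16 (R 4.3.3): filterByExpr by group, TMM scaling, glmQLFit with robust empirical Bayes and glmQLFTest without covariates, p-values adjusted by Benjamini-Hochberg across the 15126 genes that passed, and a call below an adjusted p of 0.05. All adjusted p-values are from this test unless DESeq2 1.42.0 or limma 3.58.1 is named. The standard error is the log2 fold change divided by the square root of F. TPM was computed from the counts and the exon length in the tables. Scripts were tested on simulated data. Every pair of libraries differed by more than sampling noise (smallest chi-square per degree of freedom 104, DHT 1 and 2).

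The titles number the libraries 1 to 3 in each group and say nothing of a shared litter or day. Deviations from the group means correlated by 0.246, 0.145 and 0.602 between DHT and placebo libraries numbered 1, 2 and 3. However, DHT 1 correlated more with placebo 2 (0.445) and DHT 2 with placebo 1 (0.287) than with their own numbers. Neither the labels nor these values thus establish a pairing by number. Calls of the fit blocked on that number are given as an alternative only.

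The members and gene lists were chosen with earlier results of these data known. All 34 members are named, with values in every library for those called, those whose groups did not overlap and the C1q chains. Of the other lists, genes called by the main test are named, and any further gene was picked with its values in view. Genes of those lists called only in an alternative are counted but not all named. Alternatives tried: DESeq2 size factors, library size alone, no 20 most counted or mitochondrial genes, every gene with a count kept, a floor of 1 CPM reached by 3 libraries or more, the block, DESeq2, limma voom with sample quality weights, a fit that was not robust, and leaving out each library.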

Additional observations from a re-analysis of the deposited data

How the results depend on the processing

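C6 was called in each of 15 alternatives (log2 fold change 2.89 to 3.66), and Cfd in 11 of them (6.67 to 8.56). The count of called complement genes, 2 by the main test, was 9 with the replicate block, 8 with DESeq2, 4 with limma voom and 1 to 5 without 1 library in turn; among all genes it was 250, against 1621, 1062, 707 and 84 to 862 in the same settings and 521 without a low-count filter. The block changed the calls given beside the results and no other call of a complement gene. Of the other complement genes 0 to 1 were called without 1 library. With library size alone the median log2 fold change was 0.165 over all genes and -0.0343 over the 34, against -0.0245 and -0.223 with TMM.

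Signs turned only in genes that were called in no setting. With library size alone, positive values were 0.08 for C1qb, 0.07 for Mbl1, 0.18 for Fcna, 0.06 for Colec10, 0.16 for Hc, 0.06 for C7 and 0.15 for Clu. With the block they were 0.01 for Fcna, 0.04 for Hc and 0.01 for Clu, and with limma voom 0.14 for Mbl1 and 0.10 for Fcna. Without 1 library in turn the log2 fold change ranged from -0.26 to 0.20 for C1qb, from -0.54 to 0.14 for C1qc, from -0.47 to 0.22 for C4b, from -0.36 to 0.36 for Mbl1, from -0.40 to 0.45 for Fcna, from -0.26 to 0.08 for Colec10, from -1.34 to 0.11 for Masp1, from -0.25 to 0.34 for Hc, from -0.86 to 0.32 for C7, from -0.89 to 0.10 for C8g and from -0.29 to 0.16 for Clu. The cause of these changes was not tested. C3 has no value without the 20 most counted genes, since it is one of them, and C7 and C5ar1 none at the filter of 1 CPM. Counts of Cfd in placebo, of C7 and of C5ar1 limit what depth can show for them.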
